A study of Mus musculus with 6 samples.

Results

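The genes described here are 10 antiviral effectors of mouse cells: Mx1, Mx2, Bst2, Rsad2, Ifitm3, Samhd1, Samd9l, Rtp4, Lgals3bp and Xaf1. They are represented by 18 of the 45101 probe sets of the array, a probe set being a group of short probes for 1 transcript, and by 10 of 18193 named genes. The genes were selected on their signal differences between GCN5-/- and GCN5+/- cells, so that difference is given for them as a description. No evidence is drawn from its tests. Expression was measured in immortalized mouse embryonic fibroblasts, connective tissue cells grown from embryos. Every sample was PCAF-/-, that is, without the histone acetyltransferase PCAF (gene Kat2b), and no PCAF wild-type cells were compared. The arrays comprised 3 of PCAF-/-;GCN5-/- cells and 3 of PCAF-/-;GCN5+/- cells, GCN5 (gene Kat2a) being the closely related acetyltransferase. The design text describes a conditional GCN5 allele and infection with a retrovirus carrying Cre recombinase or with the vector alone. No array label names the virus; GCN5-/- was read as Cre and GCN5+/- as vector, so virus and genotype changed together. Cells were selected with puromycin. In both groups, line A supplied a pair of duplicate RNAs (arrays A1 and A2) and the independently immortalized line B supplied 1 (array B). Thus 2 lines stand behind each comparison, and p-values draw in part on the variation of duplicate RNAs.

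Interferons are secreted proteins that bind receptors on the cell surface and, through JAK kinases and STAT transcription factors, switch on a large set of genes. The products of many of these genes block viruses directly, each at its own step of infection, and are called restriction factors. Fibroblasts both make and answer type I interferon. A DNA motif bound by the STAT-containing complex and by interferon regulatory factors, the interferon-stimulated response element (ISRE), lies near the start of many such genes.

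The ISRE core was looked for in the promoters because most of these genes were higher together in GCN5-/- cells. RefSeq promoters (GRCm38.p6, 250 bases before to 50 after the start of transcription) were matched for 7 of the 10 genes; Mx1, Mx2 and Rtp4 were not matched. The core GAAANNGAA, read on both strands, was found in 4 of the 7 promoters, those of Bst2, Rsad2, Ifitm3 and Samd9l, and in 8.56% of all 32851 promoters in the table. Bst2 and Ifitm3 each held 2 matches, as 0.624% of all promoters did. The 4 stretches that hold the matches are given 5′ to 3′ on the strand of the gene, with the matches in capitals; the Rsad2 match lies on the opposite strand and reads as the reverse complement.
Bst2, chr8:71537568-71537622, minus strand: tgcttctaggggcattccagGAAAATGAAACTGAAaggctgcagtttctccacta
Rsad2, chr12:26456543-26456591, minus strand: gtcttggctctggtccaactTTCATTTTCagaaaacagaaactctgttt
Ifitm3, chr7:141010715-141010744, minus strand: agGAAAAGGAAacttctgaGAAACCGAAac
Samd9l, chr6:3399522-3399551, minus strand: gtatcagaatcgaaactgGAAACTGAAgca
The matches began 130 and 124 bases before the start in Bst2, where they overlap, and 119 bases before it in Rsad2. In Ifitm3 they began at bases 3 and 20 of the transcript and in Samd9l at base 39. The gamma-activated site TTCNNNGAA, bound by STAT dimers, was found on either strand in 3 of the 7 promoters (Bst2, Ifitm3 and Samhd1) and in 8.30% of all promoters. The TATA box letters TATAAA were found in 1 of the 7 (Rsad2) and in 13.6% of all. A match is a description of the letters in this window and not a shown binding site.

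Array medians lay between 7.41 and 7.46 on the log2 scale. A probe set was called where its limma adjusted p was under 0.05, and was tested only if its mean signal over the 6 arrays reached a level filter of 6.80. Kat2a fell in GCN5-/- arrays at 2 of its 3 probe sets: 1422972_s_at read 7.97, 7.85 and 7.75 in GCN5-/- cells (A1, A2, B), against 9.31, 10.07 and 11.51 in GCN5+/- cells. The third and brightest, 1426783_at (mean 11.31), had a change of 0.18 ± 0.16 (SE) and was not called. Its pair differences were 0.56 and 0.38 in line A and -0.41 in line B. The positions of the 3 probe sets in relation to the deleted part were not analysed here. The 3 probe sets of Kat2b were under the level filter. Of 12 fibroblast markers, 6 fell in GCN5-/- arrays and the others were not called. Over all named genes tested, at 1 probe set each, 602 of 12626 were called lower. The mean log2 signals of the 12 markers ran from 7.10 for Thy1 to 14.73 for Vim. Thy1 read 6.21, 6.02 and 8.60 in GCN5-/- arrays and 6.19, 6.05 and 9.54 in GCN5+/- arrays A1, A2 and B. This fibroblast surface marker was thus under the filter level of 6.80 in line A. Of macrophage and leukocyte markers, 12 of 13 were matched and 8 tested, and 1 rose, Cd53 (0.85 ± 0.09, SE; limma adjusted p = 0.00167). The defining markers Ptprc, Itgam, Adgre1 and Tyrobp had mean log2 signals of 4.64, 4.93, 6.18 and 6.35, under the level filter. Of the other tested markers none was called. Csf1r (mean 9.18) had pair differences of 0.48, 0.48 and 0.12 and Cd68 (mean 7.23) of 0.56, 0.16 and 0.43. Both were higher in every GCN5-/- array than in its partner. Cd14 (mean 9.34) had a change of 0.07 ± 0.09 and Cd3e of 0.10. Lyz2, Laptm5 and Fcer1g went the other way, by -0.05, -0.05 and -0.03. The summed linear signal of the 12 was 2840.5 to 4168 in GCN5-/- arrays and 2495 to 3129 in GCN5+/- arrays; its part in the results below was not tested. Plasmacytoid and dendritic cell markers summed to 2960.2 to 4078 and 3503 to 4843 in the same order, and changes of the 3 tested lay between -0.26 and 0.09. The brightest of them by far was Tcf4 (mean 11.54), while Siglech, Irf8, Itgax and Xcr1 were under the level filter. Of 6 endothelial and 6 epithelial markers, 1 and 3 were tested and none was called. The epithelial sum was 911 to 3037 in GCN5-/- arrays and 1017 to 2669 in GCN5+/- arrays, highest in line B of each. Its brightest marker, Krt19, read 8.18, 7.91 and 11.11 in GCN5-/- arrays A1, A2 and B, against 8.38, 7.91 and 10.81 in GCN5+/- arrays. In these bulk samples fewer cells of a type and less RNA per cell cannot be told apart.

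The brightest probe set of each of the 10 genes read higher in the GCN5-/- array than in the GCN5+/- array in all 3 matched pairs, by very different amounts. At their brightest probe sets Rtp4, Lgals3bp, Rsad2 and Bst2 were 10.6-fold, 7.59-fold, 7.69-fold and 7.20-fold higher in GCN5-/- cells, and Samd9l 5.52-fold. Of the 18 probe sets, 16 passed the level filter and 11 of the 16 were called, all higher. Rsad2 1421009_at had a GCN5+/- mean of 6.02, under the level filter, and was tested only because its GCN5-/- signal was high. Over all tested probe sets 8.51% were called, 1135 higher and 1164 lower; since the genes were chosen by this contrast, nothing is read from the count. Taking the brightest probe set of each gene, the median log2 change was 2.53, with a range from 0.25 for Samhd1 to 3.41 for Rtp4, beside a median of -0.01 over all tested probe sets. The median was 2.39 in line A and 2.08 in line B, and 8 of the 10 genes had the larger change in line A. Xaf1 enters these values at 1443698_at, the brighter probe set over the 6 arrays. In line A alone its other probe set, 1443621_at, was brighter (mean 10.09 against 8.93). The change at 1443621_at was 3.76 in line A and 0.23 in line B, so the medians depend on this choice.

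**Figure D1:**
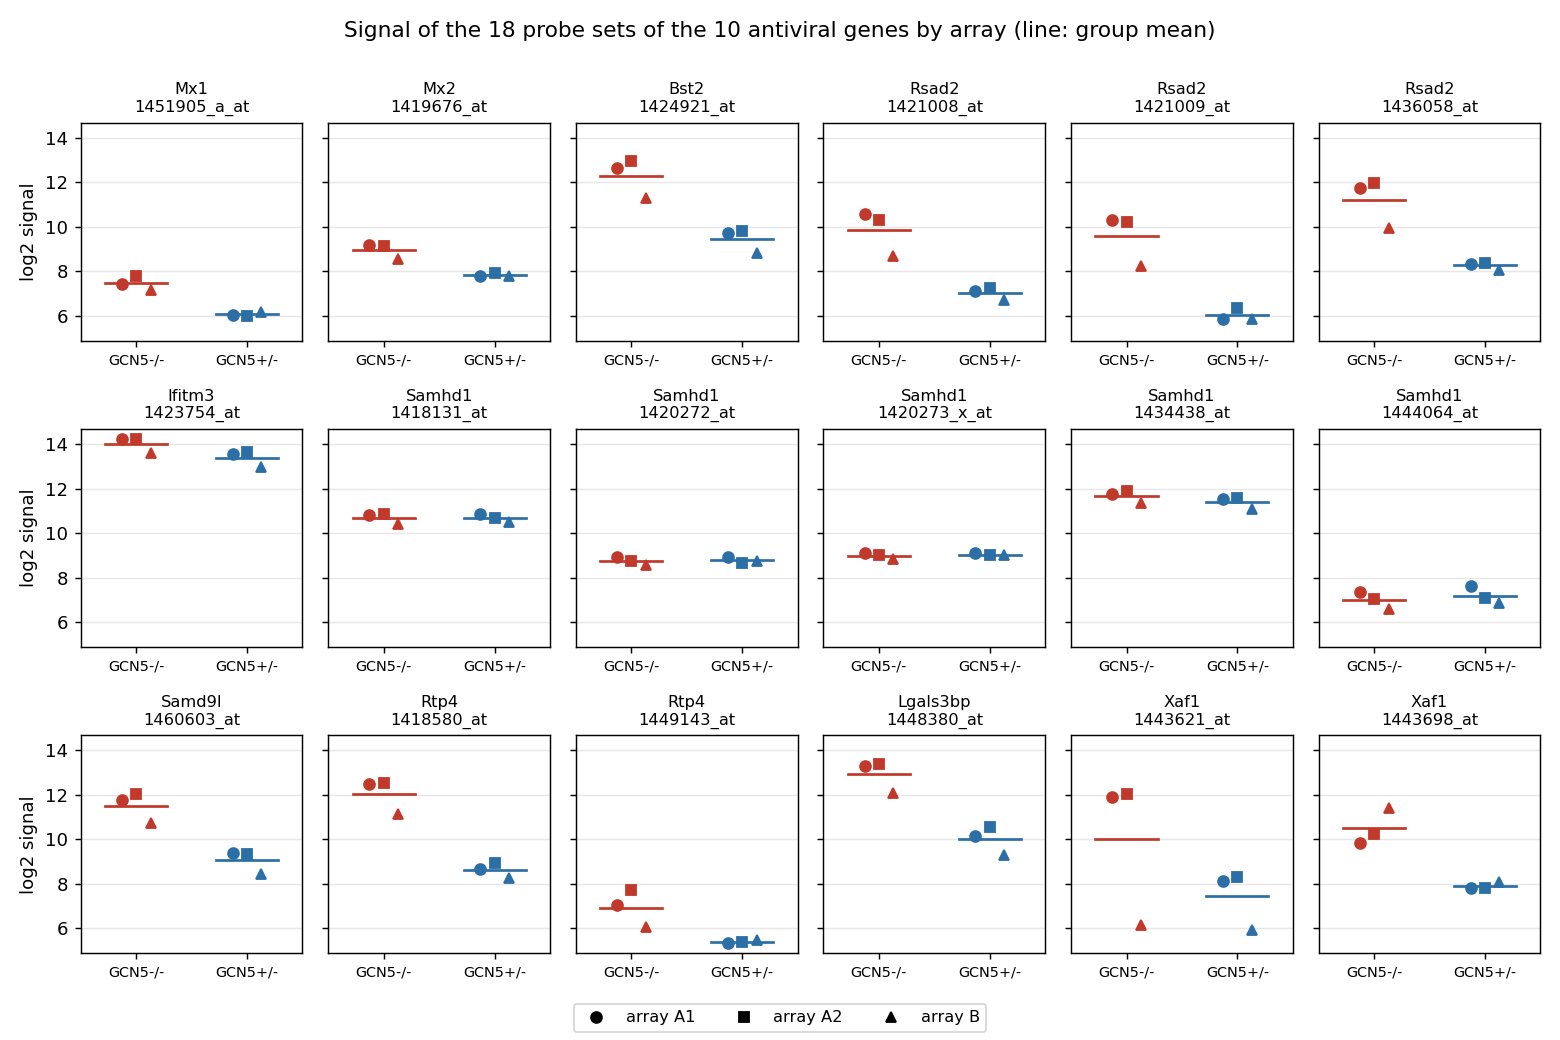
Log2 signal (vertical axes) of each of the 18 probe sets in the 3 GCN5-/- arrays (red, left) and the 3 GCN5+/- arrays (blue, right). Circles are array A1, squares A2 and triangles B, and lines are group means. The triangle of Xaf1 1443621_at in GCN5-/- cells lies at 6.15, far under the 2 line A arrays.

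Mx proteins are dynamin-like GTPases that trap incoming viral nucleoproteins; in mice Mx1 acts in the nucleus against influenza-like viruses and Mx2 in the cytoplasm. Many inbred laboratory strains carry defective Mx alleles, and the strain of these cells is not given in the sources used here. Mx1 (1451905_a_at) had log2 signals of 7.42, 7.78 and 7.16 in GCN5-/- arrays A1, A2 and B, against 6.05, 5.99 and 6.15 in the matching GCN5+/- arrays. All GCN5-/- arrays lay above all GCN5+/- arrays, and the GCN5+/- arrays lay close together. Its mean level over the 6 arrays, 6.76, was just under the filter of 6.80, so Mx1 was not tested. Mx2 (1419676_at) read 9.18, 9.15 and 8.54 in GCN5-/- arrays and 7.80, 7.92 and 7.78 in GCN5+/- arrays, and the groups did not overlap. The difference was 1.39 ± 0.14 (log2, SE) for Mx1, or 2.61-fold, and 1.12 ± 0.13 for Mx2, or 2.17-fold. In both genes the smallest difference was that of pair B, 2.01-fold for Mx1 and 1.70-fold for Mx2.

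Bst2, or tetherin, holds budding virus particles at the surface of the infected cell. Its probe set 1424921_at read 12.65, 12.97 and 11.27 in GCN5-/- arrays A1, A2 and B, against 9.74, 9.80 and 8.81 in GCN5+/- arrays. The lowest GCN5-/- array was well above the highest GCN5+/- array, and in each group the line B array was the lowest. The difference was 2.85 ± 0.14 (log2, SE), with pair differences of 2.91, 3.17 and 2.46 for A1, A2 and B.

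Rsad2, or viperin, is a radical SAM enzyme that makes a chain-terminating ribonucleotide and so blocks viral RNA polymerases. Its brightest probe set, 1436058_at, read 11.72, 11.94 and 9.94 in GCN5-/- arrays and 8.32, 8.38 and 8.08 in GCN5+/- arrays. The GCN5+/- arrays lay close together, whereas the GCN5-/- array of line B was well under the GCN5-/- arrays of line A. Probe set 1421008_at read 10.59, 10.31 and 8.69 in GCN5-/- arrays and 7.10, 7.26 and 6.72 in GCN5+/- arrays. Probe set 1421009_at read 10.31, 10.21 and 8.23 in GCN5-/- arrays and 5.87, 6.35 and 5.85 in GCN5+/- arrays. All 3 probe sets showed the same order, with no overlap between the groups and the smallest difference in pair B. Their log2 differences were 2.94 ± 0.29, 2.83 ± 0.24 and 3.56 ± 0.32 (SE), in the order given. Pair differences ran from 3.05 to 4.45 in line A and from 1.86 to 2.39 in line B.

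Ifitm3 is a small membrane protein of endosomes that hinders fusion of entering viruses. Its signal lay at percentile 99.2 of all probe sets: 1423754_at read 14.23, 14.23 and 13.60 in GCN5-/- arrays A1, A2 and B, against 13.56, 13.66 and 12.96 in GCN5+/- arrays. The groups overlapped, since GCN5-/- array B lay below GCN5+/- array A2, yet each GCN5-/- array lay above its own partner. The pair differences of 0.67, 0.57 and 0.65 lay close together, and their mean was 0.63 ± 0.04 (log2, SE), or 1.55-fold. Its relative Ifitm2 (1417460_at) read 13.39, 13.33 and 12.98 in GCN5-/- arrays and 13.41, 13.39 and 13.15 in GCN5+/- arrays, a change of -0.08 ± 0.05 (SE; limma adjusted p = 0.350) that was not called.

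Samhd1 is a hydrolase that depletes the deoxynucleotides needed for reverse transcription of retroviruses. It had 5 probe sets, with pair differences between -0.30 and 0.30. The brightest, 1434438_at, read 11.75, 11.90 and 11.33 in GCN5-/- arrays A1, A2 and B, against 11.54, 11.59 and 11.09 in GCN5+/- arrays. Each GCN5-/- array lay above its partner, by 0.21, 0.30 and 0.24, while the groups overlapped because of the line. The mean difference was 0.25 ± 0.07 (log2, SE), or 1.19-fold. At 1418131_at the signal was 10.82, 10.84 and 10.40 in GCN5-/- arrays and 10.85, 10.68 and 10.50 in GCN5+/- arrays, a difference of 0.01 ± 0.09 with mixed signs over the pairs. The other three had mean differences of -0.04 (1420272_at), -0.06 (1420273_x_at) and -0.20 (1444064_at), each smaller than 1.5 times its SE. The letters _x_ mark a probe set that may bind other transcripts. All 5 probe sets passed the level filter, and at each the groups overlapped.

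Samd9l, a cytoplasmic protein that restrains poxviruses and cell growth, read 11.78, 12.05 and 10.74 at 1460603_at in GCN5-/- arrays A1, A2 and B, against 9.38, 9.36 and 8.43 in GCN5+/- arrays. No GCN5-/- array reached down to the GCN5+/- range. The pair differences of 2.39, 2.69 and 2.31 lay close together, with a mean of 2.46 ± 0.10 (log2, SE), or 5.52-fold. Line B was lower than line A in both genotypes.

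Rtp4 is a receptor chaperone that also acts against flaviviruses. Its bright probe set, 1418580_at, read 12.50, 12.51 and 11.15 in GCN5-/- arrays A1, A2 and B, against 8.69, 8.96 and 8.27 in GCN5+/- arrays. This was the largest difference among the brightest probe sets of the 10 genes, 3.41 ± 0.16 (log2, SE), and the groups were well apart. The second probe set, 1449143_at, read 7.04, 7.72 and 6.05 in GCN5-/- arrays and 5.33, 5.38 and 5.46 in GCN5+/- arrays, and its mean of 6.16 was under the level filter. It pointed the same way in all pairs with smaller differences, 1.71, 2.34 and 0.58. Between the 2 probe sets the change in line B thus differed by 2.29 and that in line A by 1.66.

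Lgals3bp is a secreted glycoprotein that binds galectins and cell-surface sugars. Its probe set 1448380_at read 13.30, 13.41 and 12.08 in GCN5-/- arrays A1, A2 and B, against 10.16, 10.54 and 9.31 in GCN5+/- arrays. The groups were well separated and line B was again the lowest array of each. The difference was 2.92 ± 0.11 (log2, SE), 8.82-fold in pair A1, 7.29-fold in pair A2 and 6.80-fold in pair B.

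Xaf1 binds the inhibitor of apoptosis XIAP and favours cell death. Its 2 probe sets had nearly the same mean difference, 2.58 ± 0.59 for 1443621_at and 2.60 ± 0.21 for 1443698_at (log2, SE), but it came from different arrays. At 1443621_at the signal was 11.92, 12.02 and 6.15 in GCN5-/- arrays A1, A2 and B, against 8.14, 8.29 and 5.92 in GCN5+/- arrays. Line B was low in both genotypes, near the low end of the scale, and its pair differed by 0.23, against 3.79 and 3.72 in the line A pairs. At 1443698_at the signal was 9.86, 10.24 and 11.41 in GCN5-/- arrays and 7.82, 7.80 and 8.09 in GCN5+/- arrays. Here line B had the highest signal of either group and the largest difference, 3.31, against 2.04 and 2.44 in line A. The 2 probe sets therefore agreed on a higher signal in GCN5-/- cells of line A and disagreed on line B, where the changes lay 3.08 apart. Where their probes lie in the gene was not analysed here.

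**Figure D2:**
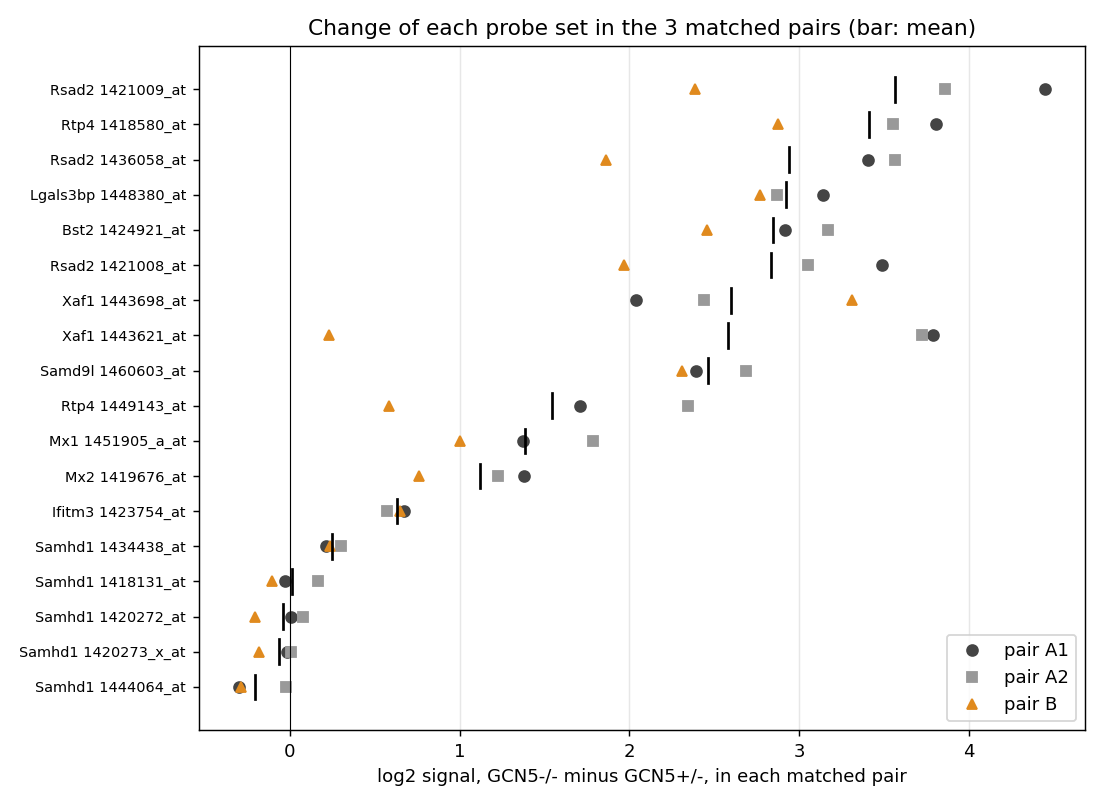
Log2 difference, GCN5-/- minus GCN5+/-, of each of the 18 probe sets (rows, sorted by their mean) in the matched pairs A1 (dark circles), A2 (grey squares) and B (orange triangles), with the mean as a bar. Pair B has the smallest difference at most of the probe sets that were higher; Xaf1 is split, with 0.23 at 1443621_at and 3.31 at 1443698_at in pair B.

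The difference between the lines was not itself used to choose the genes and was tested with genotype in the model. It shares its arrays with the pair differences that were used. At every probe set tested except that of Ifitm3, the line difference was larger in size in GCN5-/- than in GCN5+/- cells. It was -1.54 against -0.96 at Bst2, -1.36 against -0.55 at Rtp4 1418580_at, and -0.62 against -0.65 at Ifitm3. The split was widest at Rsad2 and Xaf1, given below. The line test of these genes is therefore not independent of how they were chosen. Of the 16 probe sets tested, 13 were called between the lines, 12 lower and 1 higher in line B, from 8 of the 10 genes; over all tested probe sets 23.1% were called. Probe sets of 1 gene share transcripts and are not independent. The contrast sets 1 line against 1 line, so its p-values do not measure the spread between lines. With the line A duplicates averaged, 9 of the 16 were called. Ifitm3 was lower in line B by 0.64 ± 0.04 on the log2 scale (SE; limma adjusted p = 4.93e-05), with means of 13.28 in line B and 13.92 in line A. Lgals3bp had means of 10.70 in line B and 11.85 in line A (limma adjusted p = 0.000360), Samd9l 9.58 and 10.64 in the same order (limma adjusted p = 0.000426), and Bst2 10.04 and 11.29 (limma adjusted p = 0.000751). Rtp4 1418580_at had a line difference of -0.96 ± 0.17 (SE; limma adjusted p = 0.00605). Samhd1 was lower in line B at 3 of its 5 probe sets, most clearly at 1434438_at (-0.49 ± 0.08, SE; limma adjusted p = 0.00302).

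At Rsad2 the line difference lay mostly in the GCN5-/- cells. Line B minus line A was -1.90 in GCN5-/- and -0.27 in GCN5+/- cells at 1436058_at, -1.76 and -0.46 at 1421008_at, and -2.03 and -0.26 at 1421009_at. Their limma adjusted p-values for the line ran from 0.0167 to 0.0442. At 1421009_at, whose GCN5+/- mean was under the level filter, the line call was lost without that filter. Without GCN5-/- array B all 3 calls were lost, and 7 of the 16 probe sets were called in place of 13; without GCN5-/- array A1 or A2, 8 were called. At Lgals3bp and Samd9l the difference was also present in the GCN5+/- cells, where it was -1.04 and -0.94.

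Xaf1 had the extreme values in both directions. Probe set 1443621_at had a line B minus line A difference of -4.06 ± 0.63 on the log2 scale (SE; limma adjusted p = 0.00282), while 1443698_at was higher in line B by 0.82 ± 0.23 (limma adjusted p = 0.0330). Within the GCN5+/- cells alone the line difference was -2.30 at 1443621_at and 0.28 at 1443698_at. Differences of more than 3 log2 units between the lines, in either direction, were seen at 0.400% of all tested probe sets (108 of 27022). Among the 39 other antiviral genes described below, 2 had such a difference, Trim25 (1419879_s_at, -4.58 ± 0.14, SE) and Ch25h (-4.32 ± 0.15), both lower in line B and both named for this after their values were seen. Trim25 read 11.95, 12.08 and 7.15 in GCN5-/- arrays A1, A2 and B, against 10.67, 10.78 and 6.43 in GCN5+/- arrays, and its genotype change kept its direction in line B.

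The genotype difference was also set side by side for the 2 lines. These pair differences served to choose the genes, and the disagreement of the Xaf1 probe sets was part of that choice, so the values are a description with no test; a product term was called at 0.0481% of all tested probe sets (13 of 27022), and nothing is read from it for these genes. Xaf1 1443621_at had the largest gap, with a change of 0.23 in line B and 3.76 in line A, and 1443698_at ran the other way, with 3.31 in line B and 2.24 in line A. Rsad2 1436058_at had a difference of 1.86 in line B and 3.48 in line A. For Ifitm3 the changes were 0.65 and 0.62, and for Lgals3bp 2.77 and 3.00, in the same order. Line B has 1 array per group, so its change has no replicate.

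**Figure D3:**
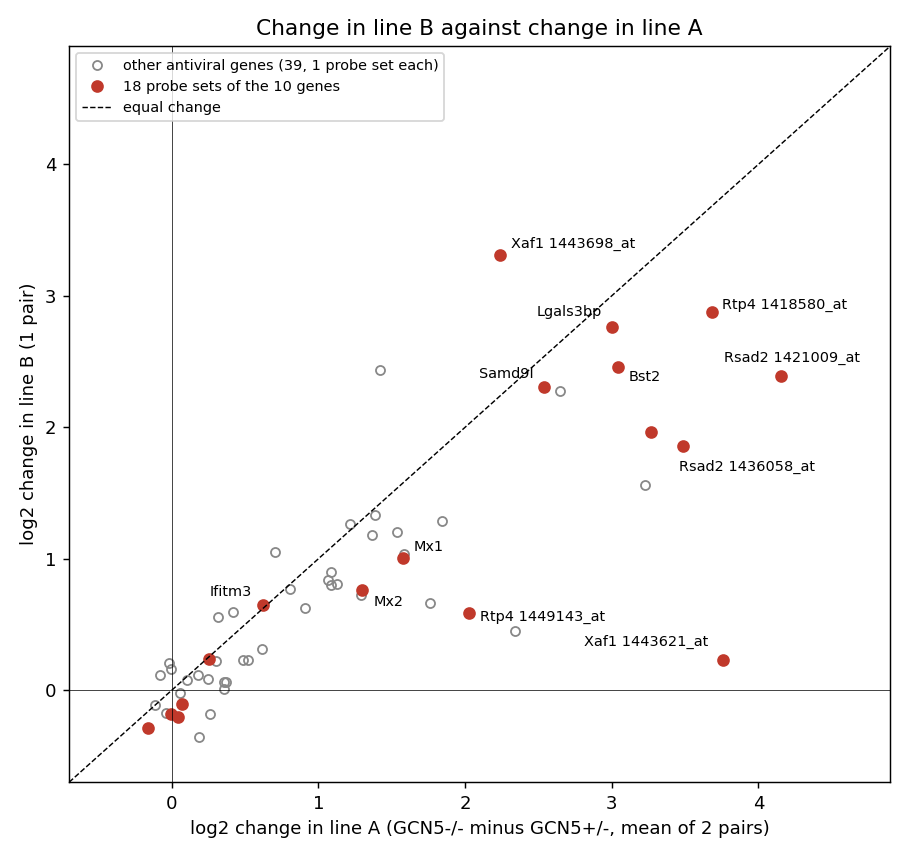
Log2 change, GCN5-/- minus GCN5+/-, in line B (vertical axis, 1 pair) against that in line A (horizontal axis, mean of 2 pairs) for the 18 probe sets (red) and for 39 other antiviral genes (open grey circles). Most points lie under the dashed line of equal change; Xaf1 1443621_at lies at 3.76 in line A and 0.23 in line B, and Xaf1 1443698_at above the line.

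With the line as a term of the model, most of the other effectors of the antiviral response that were tested also rose. They come from a list chosen with earlier results of these data known, so its counts are no independent check on the 10 genes. Of a list of 42 such genes that holds none of the 10, 39 were matched and 36 passed the level filter; 22 of the 36 were called, all higher in GCN5-/- cells, and 14 of these by at least 2-fold. With 1 probe set per gene, 9.86% of all named genes tested were called, 643 of 12626 higher. The list's median log2 change was 0.81, beside 0.01 over all named genes. In line A the median was 0.76 and in line B 0.61. Without a term for the line 4 of the 36 were called, and 12 with the line as a random block.

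Slfn8, of the Schlafen family that curbs protein synthesis and growth, had the smallest p of the list. It read 8.72, 9.20 and 7.87 in GCN5-/- arrays A1, A2 and B, against 6.21, 6.41 and 5.60 in GCN5+/- arrays, a rise of 2.52 ± 0.15 (log2, SE; limma adjusted p = 0.000115). Slfn8, Trim12a and Sp100 had GCN5+/- means under the level filter, 6.07 for Slfn8, and were tested only because their GCN5-/- signal was high; without the filter 22 genes of the list were again called. Slfn2 rose by 1.30 ± 0.10. Ifi35, an interferon-induced leucine zipper protein, rose by 1.66 ± 0.11, and the ubiquitin ligases Trim21, an antibody receptor of the cytosol, and Trim12a, a relative of the retrovirus factor TRIM5, rose by 1.42 ± 0.11 and 1.37 ± 0.09. Zc3hav1, the zinc finger antiviral protein, Tdrd7, a tudor domain protein, and Nmi, an interferon-induced partner of Ifi35, rose by 0.79 ± 0.07, 1.02 ± 0.09 and 1.40 ± 0.13. Limma adjusted p-values of these genes were at most 0.00111. With the line as a random block Trim21 and Trim12a were not called. Trim12a was under the level filter, and so not tested, without GCN5-/- array A1 or A2.

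Among the brightest members of that list that were not called, Ifitm2 is given above. Serinc3, which impairs retrovirus particles, read 12.35, 12.31 and 12.40 in GCN5-/- arrays and 12.26, 12.56 and 12.29 in GCN5+/- arrays (-0.02 ± 0.09, SE; limma adjusted p = 0.939). N4bp1, an RNA nuclease, had a change of 0.27 ± 0.08, Plscr1 (phospholipid scramblase) of 0.16 ± 0.09 and Cnp, a membrane phosphodiesterase, of 0.05 ± 0.09, with limma adjusted p-values of 0.0743, 0.303 and 0.809.

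**Figure D4:**
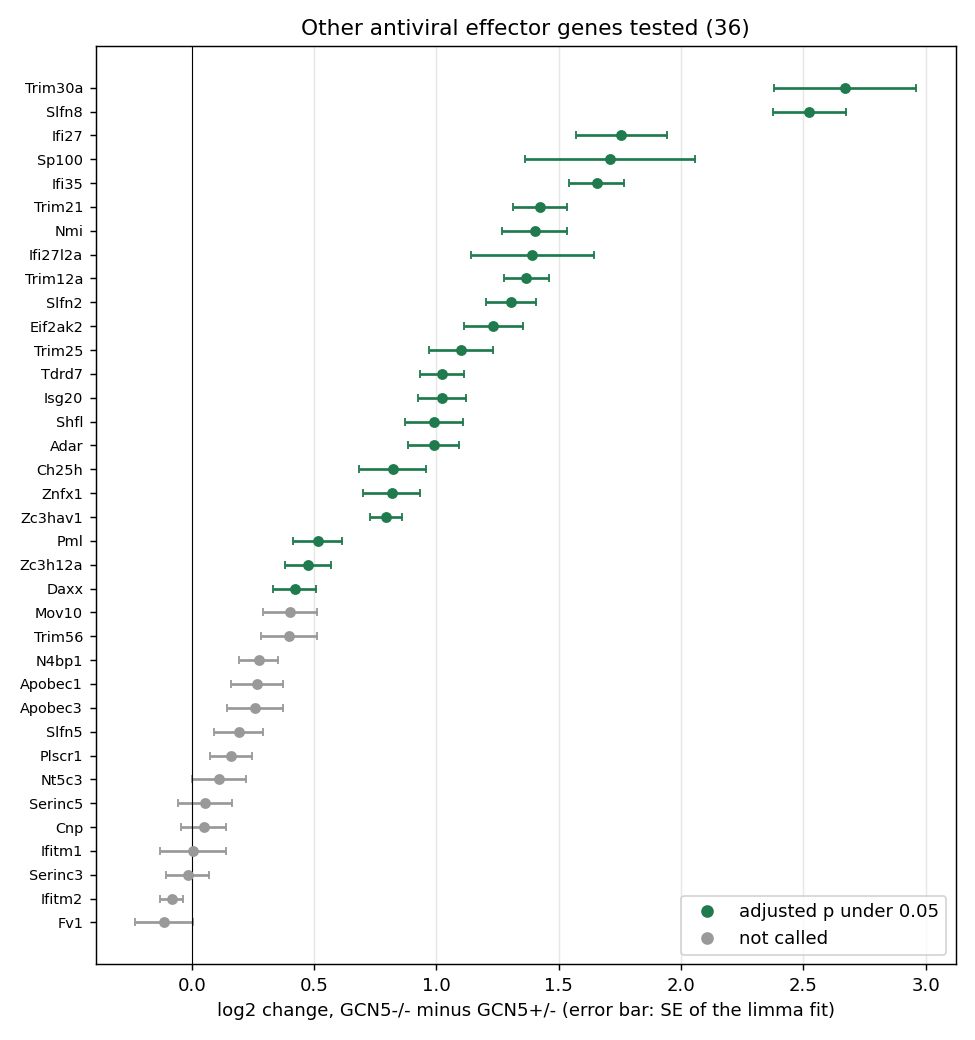
Log2 change, GCN5-/- minus GCN5+/- (horizontal axis), of the 36 other antiviral effector genes tested (rows, sorted), with the SE of the limma fit as error bars. Green points, 22 in all, were called at an adjusted p under 0.05 and lie to the right of 0; grey points were not called.

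A further list held relatives, partners and neighbours of the 10 genes: 23 of 26 were matched, 20 tested, and 4 rose and 1 fell. Over all named genes tested, at 1 probe set each, 9.86% were called. Cmpk2, a mitochondrial nucleotide kinase whose gene lies beside Rsad2, read 8.46, 8.58 and 7.53 in GCN5-/- arrays A1, A2 and B, against 7.12, 6.79 and 6.43 in GCN5+/- arrays, a rise of 1.41 ± 0.13 (log2, SE; limma adjusted p = 0.00110). Its GCN5+/- mean of 6.78 was under the level filter, so it was tested only because its GCN5-/- signal was high; without the filter the limma adjusted p was 0.00101. The galectins Lgals9 and Lgals3 rose 2.00-fold and 1.94-fold (limma adjusted p = 0.000212 and 0.00774), Lgals3 being the sugar-binding partner after which Lgals3bp is named. Rrm2b, a ribonucleotide reductase subunit that makes the deoxynucleotides Samhd1 degrades, rose by 0.44 ± 0.09 (limma adjusted p = 0.0259). Fdps, a sterol pathway enzyme that viperin has been reported to bind, fell by 0.68 ± 0.09 (limma adjusted p = 0.00432). The 15 that were not called had changes between -0.30 and 0.29.

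The genes were also set beside all others by their profile over the 6 arrays. The 10 genes were chosen on the genotype difference, so genes near those with a large difference share it by construction. The likeness is a description, and nothing more is read from it. The distance used depends on the size of the changes as well as on their pattern. Likeness was the root mean square distance between 2 profiles in log2 units, each centred on its own mean, over 12617 named genes outside the 10. Those genes had passed the level filter on their mean over the 6 arrays. The mean profile of the 10 genes lay nearest to those of Parp9 (distance 0.056), Ifih1 (0.127), Mndal (0.131), Ddx58 (0.157) and Rnf213 (0.164). Parp9 read 11.68, 11.88 and 11.12 in GCN5-/- arrays A1, A2 and B, against 9.59, 9.77 and 9.23 in GCN5+/- arrays. Singly, Bst2, Rtp4 and Lgals3bp each lay nearest to Ifi204 (distances 0.220, 0.189 and 0.158), Mx1 to Nmi (0.120), Mx2 to Mitd1 (0.088), Rsad2 to Dhx58 (0.298) and Samd9l to Slfn8 (0.123). Ifitm3 lay nearest to Csf1 (0.098), a growth factor gene, and Samhd1 to Smurf1 (0.026), whose signal also followed the line more than the genotype. Xaf1, taken at its brighter probe set 1443698_at, had the most distant nearest neighbour, Ptpn22 at 0.486. Every GCN5+/- signal of Ifi204, Mndal, Slfn8 and Ptpn22 was under the level filter. For Ifi204 these signals were 5.68, 5.93 and 5.12 in arrays A1, A2 and B. Such genes were candidates only because their GCN5-/- signal was high. Among the 10 genes themselves, Bst2 and Lgals3bp were the closest pair (0.149) and Xaf1 stood farthest from any other (0.854 to Mx1).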

How the data were processed

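The series matrix deposited by the authors holds 1 log2 signal per probe set and array, from 3.13 to 15.18, a scale inferred from the numbers themselves. The submitters' processing notes name MAS5 for 6 samples and Partek for 1, without role; the sources used here give no normalization or background correction. Gene names came from the platform annotation, updated by Entrez identifier through RefSeq (GRCm38.p6); 34945 probe sets had 1 symbol, 932 several and 9160 are unnamed here. The 64 control probe sets were left out.

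Tests used R 4.3.3 and limma 3.58.1 (lmFit, eBayes with trend) over all 6 arrays with genotype and line, on 27022 probe sets with a mean at or above the 40th percentile (6.80), and Benjamini-Hochberg adjustment over all of them; under 0.05 was called. A product term gave the interaction. For probe sets under the filter, values and SEs came from the same fit without it. The scripts were tested on simulated data. The members and gene lists were chosen with earlier results of these data known. Genes named from the lists were the 8 called with the smallest p and the 5 brightest not called (for relatives, up to 6 called, and Cmpk2).

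The number of arrays limits the precision. Deviations from group means correlated at 0.714, 0.727 and 0.846 for same-named arrays A1, A2 and B, which share a line; A1 crossed with A2 gave 0.443 and 0.509. Between 38 and 62 values were identical in any 2 arrays. Alternatives changed the line term, block, averaging of duplicates, normalization, level filter, variance trend and arrays included.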

Additional observations from a re-analysis of the deposited data

Results flagged for a closer look

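For Xaf1 1443621_at the log2 change in line B minus that in line A was -3.53, the value singled out because the product term differed between the 2 lines under the same genotype contrast. The pair differences behind it served to choose the gene, so it restates that choice and is no independent evidence. The change was 0.23 in line B and 3.76 in line A, and the second Xaf1 probe set, 1443698_at, had 3.31 and 2.24. Signal of 1443621_at in line B was 6.15 in the GCN5-/- and 5.92 in the GCN5+/- array, both under the level filter of 6.80. The cause of the split was not tested. Groups of 3 arrays are too small for a check on single outlying arrays.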

How the results depend on the processing

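Of the antiviral probe sets, 11 were called by genotype. The genes were chosen on this contrast, so their genotype counts show only how calls depend on the settings and are no evidence about the genes. Without a line term 1 was called (Rtp4 1418580_at), of 69 calls over all probe sets, since the line spread then enters the error. With the line as a random block 9 were called, Ifitm3 and Xaf1 1443621_at being lost. With the replicate block 10 were called, Xaf1 1443621_at being lost, and the replicate block added Trim56 to the other antiviral genes and changed no other call. Leaving out 1 array gave 10 to 12. Of the other antiviral genes, 22 were called, 4 without a line term, 12 with the line as a random block, and 16 to 21 with 1 array left out; Daxx, Pml and Sp100 lost their calls when any line A array was left out. Between lines 13 were called, and 7 to 12 with 1 array left out. The interaction, built on the pair differences that chose the genes, gave 1 call, 2 to 3 with a line A array left out, and 0 by limma without trend (8 of 16 at an unadjusted p under 0.05, and 6.09% of all probe sets); it could not be fitted without a line B array. Over all probe sets 532 were called with the random block, 706 with averaged duplicates and 636 to 2321 with 1 array left out, against 2299. Of 227 alternative values of the log2 changes, 226 moved by less than the SD over the pairs and no called value changed sign; Samhd1 1444064_at moved to -0.37 without GCN5+/- array A2. Probe-level background correction and scan batches were not analysed here.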
